A study of Homo sapiens with 24 samples.

Results

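The transcriptome of ES2, a cell line derived from an ovarian cancer (a clear cell carcinoma by the study's methods), was described in its control state and set against 3 other cancer-derived lines. The members were the 3 ES2 libraries labelled siC, which had received a control siRNA, out of 24 libraries in the series. They were compared with the 3 siC libraries each of A549 (lung cancer), MV3 (melanoma) and PANC1 (pancreas cancer), giving 12 control libraries in all. The other libraries of the series came from the same 4 lines after transfection with siRNA against the RNA-binding protein IGF2BP1 and entered only as an alternative. Every control cell had thus been transfected, no untransfected cells were used here, and RNA was taken 72 h after transfection in ES2, A549 and MV3 and 96 h after it in PANC1. Each cancer type was represented by 1 line, so that a difference from ES2 is a difference between lines. The lines were deposited as separate tables that were rescaled together, and the line and its table cannot be told apart. The methods call the 3 libraries of a line biological replicates without saying that they were separate cultures, so the p-values measure the spread between these libraries.

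Cancer lines carry traces of the tissue they came from, of the oncogenic signals that drive them and of the state of adhesion they grow in. Carcinomas of the ovary usually keep genes of the Müllerian epithelium, and clear cell carcinomas often keep NAPSA, whereas lines that have lost epithelial adhesion express vimentin, ZEB factors and matrix proteases. Classical read-outs for such lines are the genes induced by the MAP kinase ERK and those induced by YAP with TEAD factors, and on the opposite side the ID genes report BMP signalling through SMAD proteins.

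Levels are given as FPKM (fragments per kilobase of gene and per unit of library depth) after the joint rescaling, and differences as ES2 minus another line on the log2(FPKM + 0.5) scale, where low genes show less than their true fold. A gene counted as higher or lower when limma gave an adjusted p under 0.05 and a log2 difference of at least 1 in the same direction against each of the 3 other lines. All 3 comparisons use the same ES2 libraries. Where libraries of ES2 and other lines are said below not to overlap, that is a description only. The share of all genes without such overlap is not given, and for called genes it largely follows from the call. Of 11984 protein-coding genes tested, 376 (3.14%) were higher in ES2 than in each other line and 243 (2.03%) were lower. Against a single line the shares were larger, with 11.9% higher and 16.3% lower than A549, 10.5% and 8.29% for MV3, and 13.5% and 15% for PANC1. Of the 376 higher genes, 95 had a mean under 0.5 in every other line. Testing required a mean of at least 0.5 over the 12 libraries. These 95 therefore passed only through ES2, and higher was the only direction open to them. They stay in the shares given. Of the 243 lower genes, 117 had an ES2 mean under 0.5 and 70 a mean under 0.1. Higher genes were 60.7% of the calls after the rescaling used and 49.5% (296 higher and 302 lower) when the libraries were given the same FPKM sum, which moved the median difference over all genes by -0.22 against A549, -0.08 against MV3 and -0.10 against PANC1.

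The markers of the labelled origin were mostly silent in ES2. Of 10 genes of the Müllerian and ovarian epithelium, 6 had a mean under 0.1, and SOX17, EMX2, MUC16, WFDC2, MSLN and FOLR1 had no read in any of the 3 ES2 libraries. PAX8, the transcription factor used to identify Müllerian tumours, stood at 0.145, 0.0604 and 0.258 in ES2, near A549 (mean 0.222) and below MV3 (1.11). WT1, a factor of the ovarian surface and serous tumours and the only member that passed the filter on low values, reached 0.149, 0.0725 and 0.133, below A549 (0.907) and PANC1 (2.22). The hormone receptors ESR1 and PGR averaged 0.150 and 0.173, and under 0.01 in each other line. EMX2 and FOLR1 had no read in any of the 4 lines. Of the markers of clear cell carcinoma, GPC3 and FXYD2 had no read in ES2, NAPSA had 2 reads and SPP1 averaged 0.433. ANXA4 and AMACR were present at 2.19 ± 0.21 and 1.26 ± 0.42 (SD, n = 3 throughout). ANXA4, an annexin, was nevertheless far higher in A549 (33.4) and PANC1 (11), and AMACR, a peroxisomal enzyme of fatty acids, did not differ detectably from A549 or PANC1 (log2 differences of -0.05 and 0.10). These lists did not identify the labelled tissue, and the line is called ES2 without a tissue name.

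Genes of the other lineages were mostly absent as well, with a few regulators above this background. Surfactant genes SFTPA1, SFTPA2, SFTPB, SFTPC and SFTPD, and the pigment cell genes SOX10, TYR, MLANA, DCT and TYRP1, had no read in ES2. They had at most 3 reads in any other line, MV3 and A549 included, so the labelled melanoma and lung lines lacked them too. PAX3, a neural crest and melanocyte factor, was 5.11, 4.83 and 5.00 in ES2 and 5.54 ± 0.27 in MV3, with means under 0.02 in A549 and PANC1. GPR143, a melanosome receptor, was 10.8 ± 0.59 in ES2 against 20.3 in MV3, 0.181 in A549 and 0.0175 in PANC1. ES2 thus lay near MV3, or below it for GPR143, and above both carcinoma lines for these 2 genes. MITF, the master regulator of pigment cells, followed another order, at 1.47 ± 0.038 in ES2, above MV3 (0.31) and below A549 (2.88) and PANC1 (7.88). ABCA3, a lipid transporter of alveolar cells, was lower in ES2 (0.292) than in each line (4.07 to 10). It was the 1 tested gene among the 10 of the lung list, beside 2.03% lower over all genes. Of 5 tested genes of the pancreatic duct list 1 was higher than in each line and 0 lower, beside 3.14% and 2.03% of all genes. That gene was GATA6, an endoderm and mesoderm factor. It was at 4.44, 4.04 and 4.21 in ES2 against means of 1.21, 1.41 and 0.0666 in A549, MV3 and PANC1. SOX9, a progenitor factor of duct and cartilage, was at 22.1 ± 0.83 in ES2 and 20.5 ± 1.9 in PANC1, a log2 difference of 0.11 that did not pass the test.

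HOX genes, which record position along the body axis, differed from ES2 in a way that depended on the line. Of 29 members tested, 0 were higher and 0 lower than in each other line, near the 3.14% and 2.03% of all genes. The median difference from the other lines was 0.04 beside -0.02 over all genes tested. By pairs, 9 were higher and 3 lower than in A549, 8 and 2 for MV3, and 7 and 13 for PANC1. Over all genes these shares were 11.9% and 16.3%, 10.5% and 8.29%, and 13.5% and 15%. Posterior members HOXC10 and HOXC13 were high in PANC1 (29.1 and 44.7) and at 0.886 and 1.59 in ES2. HOXD8 was at 4 ± 0.60 in ES2 and did not differ detectably from MV3 (5.17), while HOXD9 was at 7.14 ± 0.36 against 3.48 in MV3, and both were above A549 and PANC1.

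Most epithelial junction genes expressed in A549 or PANC1 were silent in ES2. CDH1, the gene of E-cadherin, had no read in any ES2 library, against 17.2 ± 0.42 in A549 and 5.12 ± 0.51 in PANC1. KRT19 likewise had no read in ES2, while A549 averaged 109 (at least 1743-fold higher) and PANC1 694 (at least 11110-fold higher). EPCAM was also without a read, as was CRB3, which only A549 expressed (4.02), and DSP (desmoplakin) averaged 0.00985 against 28.3 in A549 and 3.78 in PANC1. CDH1, KRT19, EPCAM and DSP did not overlap between ES2 and these 2 lines, but they had at most 4 reads in MV3, so that 0 of 14 tested members were lower than in each line. By pairs, 10 of 14 were lower than in A549 (16.3% of all genes were), 12 of 14 lower than in PANC1 (15%) and 3 of 14 higher than in MV3 (10.5%). The 3 genes above MV3 were keratins. KRT7, a simple epithelial keratin, was at 98.9, 107 and 98.7 in ES2, below A549 (372 ± 17) and above MV3 (0.883) and PANC1 (3.23). KRT18 and KRT8 were at 43.6 ± 2.6 and 8.85 ± 0.41, below A549 and PANC1 and above MV3.

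The mesenchymal genes of ES2 did not follow a single line. VIM (vimentin) averaged 1060 ± 20 in ES2, against 897 ± 50 in MV3, 608 ± 22 in PANC1 and 232 ± 4.8 in A549. TWIST1 (10.5) and PRRX1 (7.39), both transcription factors of mesenchyme, were higher than in A549 and PANC1 and did not differ detectably from MV3 (log2 differences of 0.27 and 0.19). In contrast to MV3, ES2 kept CDH2, the gene of N-cadherin, at 26.9, 27.3 and 22.4, where MV3 averaged 0.00834. FN1 (fibronectin) went the other way, at 8.29 in ES2 and 83.8 in MV3. Among 17 tested members of the mesenchymal list, 2 were higher than in each line (3.14% of all genes were). THY1, a surface glycoprotein of fibroblasts, was at 12.8, 11.3 and 10.3 against means of at most 1.09, and LOX, the enzyme that cross-links collagen, was at 107, 101 and 106 against 10.3 ± 0.44 in MV3 and 1.16 and 0.323 in A549 and PANC1. S100A4, a calcium-binding protein often used as a mesenchymal marker, was the 1 member lower than in each line. It stood at 0.450, 0.727 and 1.06 in ES2, while the other libraries lay between 45.4 and 239. The median difference over the list was 1.27, with 10 members higher than in A549, 11 than in PANC1 and 3 than in MV3, where 6 were lower, beside 11.9%, 13.5%, 10.5% and 8.29% of all genes.

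**Figure D1:**
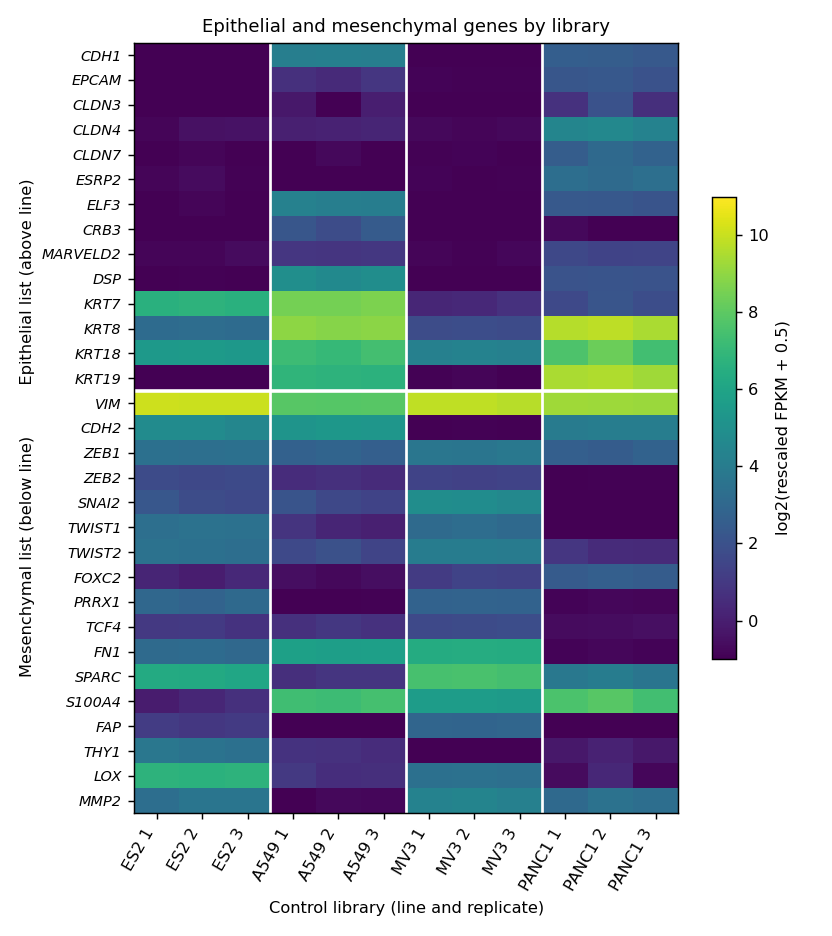
Heat map of log2(rescaled FPKM + 0.5) in the 12 control libraries for the 14 tested epithelial genes (above the white line) and the 17 tested mesenchymal genes (below it). The 3 ES2 columns are dark for CDH1, DSP and KRT19 and bright for KRT7 and VIM (mean 1060), and the S100A4 row is dark in ES2 alone.

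The most abundant protein-coding mRNA of ES2 encoded a secreted protease. MMP1, interstitial collagenase, which cuts fibrillar collagens, was at 3878, 3883 and 4107 in ES2 and ranked 1 by FPKM in each of these libraries, where it made up 1.72% to 1.85% of the summed protein-coding FPKM. In A549 it was at 1.5, 0.119 and 0.108, in MV3 at 1.69, 1.85 and 2.15, and in PANC1 at 0, 10.8 and 0.341. No library of another line came near the ES2 values, and the means were 6850-fold, 2082-fold and 1063-fold apart. The log2 differences were 12.08, 10.69 and 11.20 (SE 0.824, limma adjusted p of at most 4.38e-08). Replicate 2 of PANC1 held more of such genes than the other PANC1 libraries. It had reads for 71 of the 95 genes that were called in ES2 with every other line under 0.5, against 49 and 51 in the other PANC1 libraries, 43 to 50 in A549 and 56 to 64 in MV3, and its MMP1 value equalled 0.274% of the ES2 mean. Without it the ES2 minus PANC1 difference of MMP1 was 12.57, and each of the 15 genes furthest above the other lines was still called. The summed level of the 95 genes was 1.28% of ES2 there, against 1.21% and 1.2% in the other PANC1 libraries and up to 1.29% in MV3, so that it did not stand apart by that measure. The source of these reads was not tested.

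Inhibitors and activators of the plasminogen cascade accompanied it. SERPINB2 (PAI-2), an inhibitor of the urokinase and tissue type activators, was at 413, 416 and 437 in ES2, against means of 0.0553 in A549, 3.48 in MV3 and 0.492 in PANC1. PLAT, the tissue type activator itself, was at 95.6, 99.3 and 102, with means of 1.29, 3.86 and 0.294 elsewhere. Both were separated from every library of the other lines. By contrast PLAU (urokinase, 84.4 ± 18) lay within a log2 difference of 1.3 of each other line. In all, 2 of 8 tested members of the plasminogen system were higher than in each line and 0 were lower, beside 3.14% and 2.03% of all genes. Replicate 2 of PANC1 again held the largest PANC1 values of SERPINB2 (1.48, against 0 and 0) and PLAT (0.771, against 0.0715 and 0.0406).

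Among 12 tested matrix metalloproteinases and inhibitors, 3 were higher and 1 lower than in each line, beside 3.14% and 2.03% of all genes. TIMP3, a matrix-bound inhibitor of metalloproteinases, was at 36.4, 34.0 and 34.4 in ES2 and at or under 0.102 in every other library. It passed the filter on low values only through ES2, so its direction was fixed by the filter and its call adds no support. ADAMTS1, a protease of proteoglycans, was at 26.8 ± 1.2, with MV3 next at 8.47. MMP15 was the lower member, at 0.0871 against 0.848 to 7.21, and its call was lost with a pseudocount of 1. The membrane-bound collagenase activator MMP14 (39.0 in ES2) and MMP3 (3.87) were both higher than in A549 and PANC1 but below MV3 (62.5 and 13.9), and MMP7, an epithelial family member, had no read in ES2 and averaged 29.0 in A549.

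Structural matrix genes split. Of 19 collagens and laminins tested, COL1A1, COL12A1 and LAMB3 were higher than in each line and LAMA5 was lower. These calls stand beside 3.14% higher and 2.03% lower over all genes. LAMB3, a laminin beta chain of epithelial basement membranes, was at 49.8, 50.5 and 55.0 in ES2 against 8.92 in A549, 4.22 in MV3 and 0.337 in PANC1, while its partner chain LAMA3 (1.57) was below A549 and did not differ detectably from PANC1. COL12A1, a fibril-associated collagen, was at 37.4 ± 0.44, against at most 6.98. COL4A1 and COL4A2, the basement membrane collagens, had no read in MV3 and were at 6.74 and 16.2 in ES2, between PANC1 (0.355 and 0.687) and A549 (64.7 and 100). Of 15 integrins, 0 were higher and 2 lower, beside the same 3.14% and 2.03% of all genes. ITGAV, the alpha chain of vitronectin receptors, averaged 7.43 ± 0.20 against 20 to 66.2, and ITGA2, a collagen receptor chain, 5.94 ± 0.53 against 14.3 to 17.3. In the libraries treated with siRNA against IGF2BP1 neither call held (-0.22 and -0.36 at the nearest line). ITGB4, the hemidesmosome integrin, had no read in ES2 and averaged 16.4 in A549 and 5.41 in PANC1.

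Some ERK-induced genes were higher in ES2 than in each line. SPRY2, a feedback inhibitor of receptor signalling, was at 44.8, 44.9 and 42.3 in ES2 against means of 5.71, 8.98 and 6.53 in A549, MV3 and PANC1. DUSP5, a nuclear phosphatase of ERK, was at 50.1, 53.5 and 49.1 against 9.13, 10.4 and 20.1. SPRED1 (23.9 ± 0.79) and EPHA4 (4.15 ± 0.49) were the other called members, both close to the minimum difference from MV3 (1.02 and 1.10) and both lost when the libraries were given the same sum. For SPRY2 and DUSP5 no library of another line overlapped ES2. The list of 19 thus held 4 higher and 0 lower members, beside 3.14% and 2.03% of all genes. Its median difference was 0.70 beside -0.02 over all genes tested. By pairs, 10 members were higher than in A549 (11.9% of all genes were), 4 than in MV3 (10.5%) and 10 than in PANC1 (13.5%). With the same FPKM sum 2 members were called, and in the libraries treated with siRNA against IGF2BP1 also 2. There the smallest difference was -0.73 for DUSP5, 0.92 for SPRY2 and 0.21 for EPHA4, so that these calls were lost.

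Of the 15 uncalled members 6 were higher than in A549 and 1 was lower. FOSL1, an AP-1 subunit, was at 155, 155 and 167, about 1.9-fold above MV3 and PANC1 (log2 differences of 0.93 and 0.94) and 18.6-fold above A549. CCND1, the gene of cyclin D1, averaged 210 ± 10 against 106 in MV3, 66.9 in A549 and 53.5 in PANC1. DUSP6, the cytoplasmic ERK phosphatase, was at 21.9 ± 0.50, with MV3 at 11.4. DUSP4 was the lower member, at 3.23 in ES2 and 47.8 in A549. Among 17 RAS, RAF and MAP kinase genes 0 were higher and 0 lower than in each line, near the 3.14% and 2.03% of all genes. Their median difference was -0.14. BRAF was at 7.62, 7.14 and 7.74 in ES2 and did not differ detectably from any line (log2 differences between -0.11 and 0.14). RASA1, a GTPase-activating protein that switches RAS off, averaged 49.0 against 14.8, 35.4 and 11.

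YAP and TEAD targets were led by a single gene. ANKRD1, a muscle ankyrin repeat protein strongly induced by YAP, was at 665, 666 and 681 in ES2, ranking between 25 and 28 among protein-coding genes by FPKM. Its means were 2.63 in A549, 0.823 in MV3 and 4.56 in PANC1, that is 255-fold, 815-fold and 147-fold lower. CTGF (CCN2), a matricellular target of the same factors, was at 44, 56.8 and 35.6 in ES2, above A549 (2.71) and MV3 (6.03), but only 0.93 on the log2 scale above PANC1 (24.1 ± 8.2). CYR61 (CCN1) followed the same order, with 213 ± 11 in ES2 and 170 ± 8.7 in PANC1. ANKRD1 was the 1 member called of 17 (5.88%, beside 3.14% of all genes), and the median difference of the list was 0.84. By pairs, 10 members were higher than in A549, 5 than in MV3 and 5 than in PANC1, where 4 were lower, beside 11.9%, 10.5%, 13.5% and 15% of all genes. Of the factors themselves YAP1 was at 78.8, 74.0 and 76.8, above each line by log2 differences of 1.53, 0.86 and 0.63. Its paralogue WWTR1 (TAZ) was lower than in each line (5.49 against 11.5 to 39.6), a call at the minimum difference from MV3 that was lost in several settings. TEAD1 (13.4) and TEAD2 (2.72) were below every other line mean, and NF2, which restrains YAP, was at 58.3 against 13.8, 22.0 and 44.

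The sequences upstream of 4 of these genes are shown. ANKRD1 and CTGF were picked as classical TEAD targets. SERPINB2 and CPA4 are among the genes furthest above the other lines and were picked because they hold an AP-1 element. The presence of that element in these 2 genes thus carries no weight. CPA4, a secreted carboxypeptidase, was at 155, 158 and 168 in ES2 against 1.87, 5.50 and 1.78. Each line gives the 250 bases before the RefSeq start on the coding strand (GRCh38.p14), with every GGAATG (a TEAD element) and TGANTCA (an AP-1 element), searched on both strands, in capitals. They lie at chr10:90921088-90921337 (ANKRD1, minus strand), chr6:131951373-131951622 (CTGF, minus), chr18:63887455-63887704 (SERPINB2, plus) and chr7:130292911-130293160 (CPA4, plus), all outside the transcribed part of the respective RefSeq transcript. No promoter entry matched MMP1.

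ANKRD1: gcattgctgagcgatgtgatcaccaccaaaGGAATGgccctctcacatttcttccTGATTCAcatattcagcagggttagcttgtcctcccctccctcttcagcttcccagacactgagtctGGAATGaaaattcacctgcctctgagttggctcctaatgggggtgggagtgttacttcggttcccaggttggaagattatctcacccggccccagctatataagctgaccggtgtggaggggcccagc
CTGF: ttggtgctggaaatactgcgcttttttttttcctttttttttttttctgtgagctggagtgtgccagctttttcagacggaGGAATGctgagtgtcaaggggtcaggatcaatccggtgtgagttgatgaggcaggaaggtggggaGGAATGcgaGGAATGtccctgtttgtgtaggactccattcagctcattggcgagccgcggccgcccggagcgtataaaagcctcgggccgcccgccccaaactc
SERPINB2: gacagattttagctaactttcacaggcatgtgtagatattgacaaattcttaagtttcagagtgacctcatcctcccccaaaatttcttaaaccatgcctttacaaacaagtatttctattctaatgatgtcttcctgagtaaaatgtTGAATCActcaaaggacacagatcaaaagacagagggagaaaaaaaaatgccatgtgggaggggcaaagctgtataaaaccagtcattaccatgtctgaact
CPA4: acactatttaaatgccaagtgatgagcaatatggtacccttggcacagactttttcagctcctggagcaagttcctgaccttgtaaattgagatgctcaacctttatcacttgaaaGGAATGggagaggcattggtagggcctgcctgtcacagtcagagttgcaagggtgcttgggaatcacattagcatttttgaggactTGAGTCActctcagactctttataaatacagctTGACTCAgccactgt

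ANKRD1 held GGAATG at -220 and -128 and TGANTCA at -195, counted from the start, and CTGF held GGAATG at -169, -104 and -95. SERPINB2 held TGANTCA at -102, and CPA4 held it at -48 and -15 with GGAATG at -134. The 2 motifs do not overlap each other in these windows. The search for shares used 300 bases, 250 before the start and 50 after it. Over all 35116 such promoters, 7.71% held TGANTCA and 14% GGAATG. Among the promoters of the genes higher in ES2 (436 promoters of 288 matched genes out of 376) the shares were 9.17% and 8.94%, against 5.13% and 11.3% for all genes tested (14351 promoters of 9800 genes). Among the lower genes (282 promoters of 187 genes) they were 3.55% and 13.8%. These shares are a description of letters, not of binding.

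The remaining genes furthest above all 3 lines were of mixed function. SORCS3 (a sorting receptor of neurons), TIE1 (an endothelial receptor), HCLS1 (a cortactin homologue of blood cells), CDH13 (T-cadherin), TENM2 and PLXNA4 (both neuronal adhesion or guidance receptors) and RFLNA (refilin A, a filamin partner) averaged between 13.3 and 27.6 in ES2. In each other line their means were at or below 0.336. They thus passed the filter on low values only through ES2. Their separation from the other libraries follows from that and from how they were picked. The cancer-testis genes MAGEA12 and MAGEC1 and the histone gene HIST1H3G complete the group. MAGEC1 had no read in the 9 other libraries and was at 24.6, 23.9 and 27.9 in ES2, at least 483-fold above A549, 1740-fold above MV3 and 776.6-fold above PANC1.

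**Figure D2:**
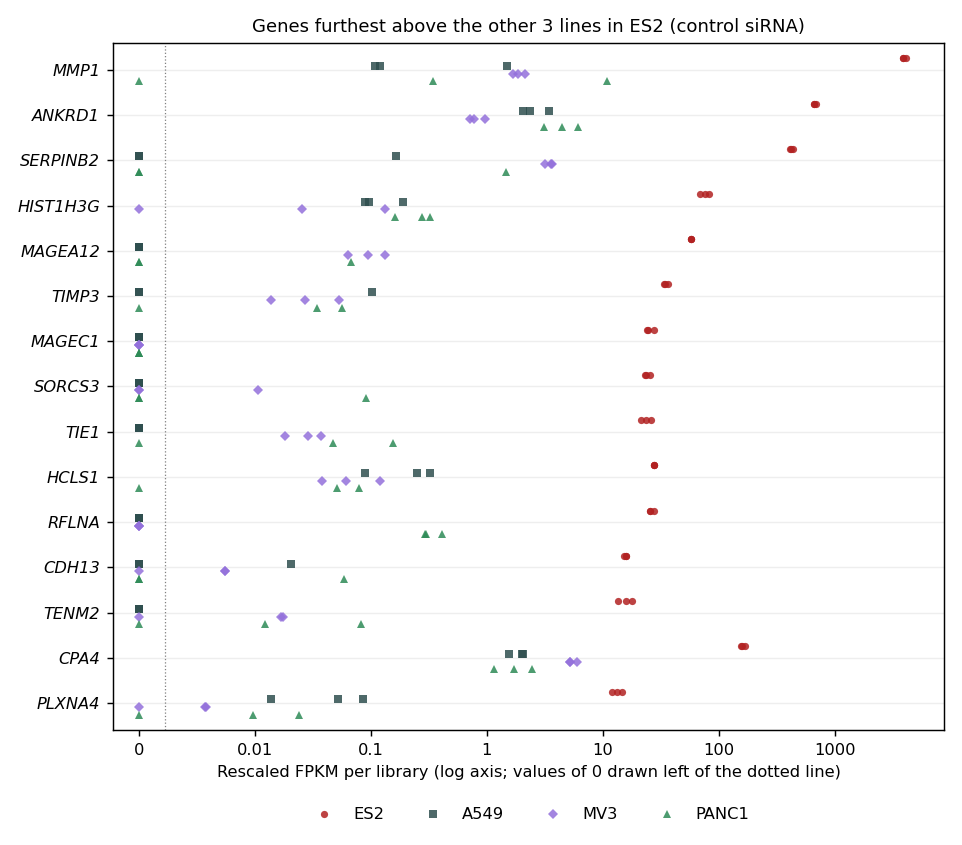
Rescaled FPKM on a log axis in the 12 control libraries for the 15 genes furthest above the other 3 lines, each point 1 library and values of 0 drawn left of the dotted line. The ES2 points of MMP1 lie between 3878 and 4107, and the highest point of any other line for that gene is 10.8, in PANC1.

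Part of the cancer-testis genes, normally confined to germ cells, was expressed in ES2. Of 16 members 6 had a mean under 0.1 in ES2, against 14 in A549 and PANC1 and 9 in MV3. Of 8 tested members 3 were higher than in each line, 6 higher than in A549 and PANC1, and 0 lower than in each, beside 3.14%, 11.9%, 13.5% and 2.03% of all genes. Against MV3 3 were higher and 2 lower, beside 10.5% and 8.29% of all genes. The median difference was 0.47 against MV3, and 5.12 and 4.99 against A549 and PANC1. MAGEC1 and MAGEA12 passed the filter on low values only through ES2, so that for them the direction was fixed by the filter and the counts support nothing. MAGEA12 was at 57.7, 57.2 and 57.4, with no read in A549 and means of 0.0969 and 0.0224 in MV3 and PANC1. MAGEA3 was at 64.7 ± 2.2 against 10.7 ± 0.83 in MV3, whereas MAGEA6 was at 13.9 in ES2 and 34.1 in MV3. These genes are near-identical copies, so that reads could be split between them and single values are uncertain. MAGEA1, present in MV3 at 11.5, had no read in ES2. PRAME lay between 12.2 and 18.2 in the 4 lines.

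Some target genes of BMP and TGF-beta signalling, mainly ID genes and inhibitory SMADs, were low in ES2. ID1, a dominant negative helix-loop-helix protein and direct target of BMP SMADs, was at 3.49, 2.06 and 2.87 in ES2 and between 54.0 and 128 in the 9 other libraries. ID3 was at 0.599, 0.664 and 0.834 against means of 91.7 in A549, 56.6 in MV3 and 17.0 in PANC1. ID2 was at 0.348, 0 and 0.124 against 17.2, 2.99 and 3.12. None of the 3 genes overlapped between ES2 and another line, and the log2 differences of ID1 were -4.36, -4.37 and -5.08 (SE 0.158, limma adjusted p of at most 1.23e-11). The inhibitory SMADs, which the pathway induces as its own brake, moved alike. SMAD7 was at 0.499, 0.646 and 0.480 against 13.3, 11.2 and 8.72, and SMAD6 at 0.476 ± 0.13 against 16.5, 3.18 and 5.97. SKIL, another induced inhibitor, averaged 4.21 ± 0.16 against 15.6 to 33.1, a call lost in the libraries treated with siRNA against IGF2BP1 (-0.80).

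In total 6 of 20 tested members were lower than in each line and 0 higher, beside 2.03% and 3.14% of all genes. By pairs, 14 members were lower than in A549, 10 than in MV3 and 8 than in PANC1, beside 16.3%, 8.29% and 15% of all genes. Among ligands, BMP4 was at 0.919 in ES2, above MV3 (0.114) and PANC1 (0.0291) and below A549 (6.48), and INHBA, the activin A subunit, was at 4.08 ± 0.53 against 2.32 in MV3 and at most 0.1 in the others. Among receptors, TGFBR1 was at 5.05 against 33.7 in A549 and 25.5 in MV3, and TGFBR2 at 36.4, between PANC1 (17.7) and MV3 (61.3). The signal carriers SMAD2 (3.05) and SMAD3 (25.6) were present.

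**Figure D3:**
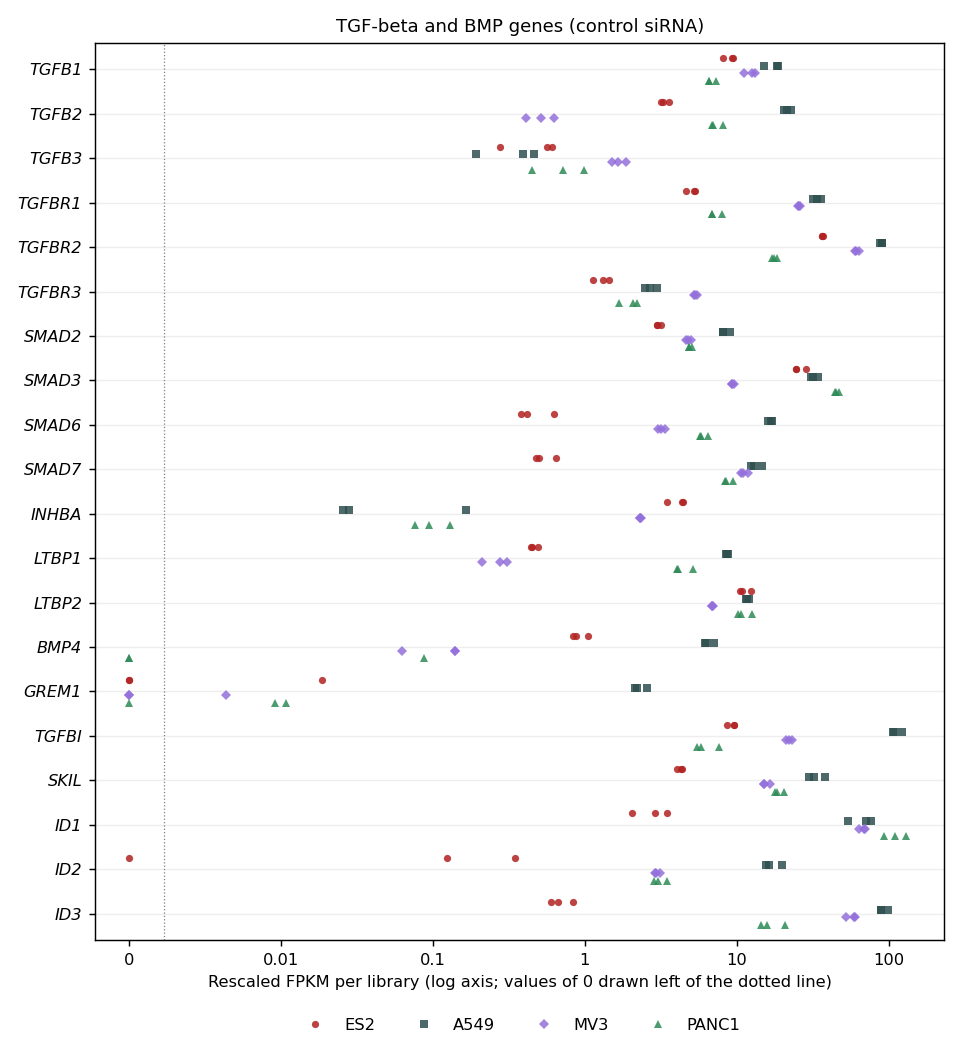
Rescaled FPKM on a log axis in the 12 control libraries for the 20 tested genes of the TGF-beta and BMP list, each point 1 library and values of 0 drawn left of the dotted line. The ES2 points of SMAD6, SMAD7, SKIL, ID1, ID2 and ID3 lie left of all other lines (for ID1 at 2.06 to 3.49, against 54.0 and above), whereas SMAD3 and LTBP2 lie among them.

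Secreted antagonists and BMP receptors were looked up after these values had been seen. FST (follistatin), which traps activins and some BMPs, was at 24.5, 24.2 and 25.6 in ES2 against means of 1.39, 1.53 and 0.131, and NOG (noggin), which traps BMPs, at 9.34, 8.98 and 8.49 against 0.233, 1.53 and 2.25. Both were higher than in each line. BMPR2, the type II receptor, was lower than in each (5.71 ± 0.27 against 13.5 to 18.2, lost with siRNA against IGF2BP1 at -0.58), while ACVR1, SMAD1 and SMAD5, which carry the signal, lay within a log2 difference of 0.52 of every line. GREM1, another antagonist, was in the fixed list and averaged 0.00622 in ES2 and 2.30 in A549.

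Other genes furthest below the 3 lines were of mixed function. CAPG, an actin-capping protein, was at 0.129 in ES2 against 16.5 to 62.4. WNT7B, a WNT ligand, averaged 0.0478 against 13.9 to 22.4. IGFBP4, which binds insulin-like growth factors, averaged 0.180 against 892 in A549 and 12.4 and 12.6 in MV3 and PANC1. AHNAK2 (a large scaffold protein), EEF1A2 (an elongation factor of muscle and neurons) and MALL (a raft protein of epithelia) were also lower by more than 3.5 on the log2 scale in each comparison. C9orf64, FAM83H and ZNF532 had no read in ES2 and averaged between 5.88 and 10.3 in the other lines. For FAM83H, a keratin-associated protein, that is at least 291-fold in A549, 302-fold in MV3 and 289-fold in PANC1. EPAS1 (HIF2A), the hypoxia-inducible factor of many carcinomas, was at 0.737, 0.735 and 0.616 against 26.3, 18.4 and 16.2. Among 18 hypoxia and glycolysis genes ADM, a vasoactive peptide and hypoxia target, was the lower 1, with no read in ES2 and means of 4.94, 31.2 and 84.9. HK2, hexokinase 2, was the higher 1, at 31.5, 32.3 and 34.7 against 0.151, 8.32 and 2.65, and the list's median difference was 0.20. These calls stand beside 3.14% higher and 2.03% lower over all genes.

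**Figure D4:**
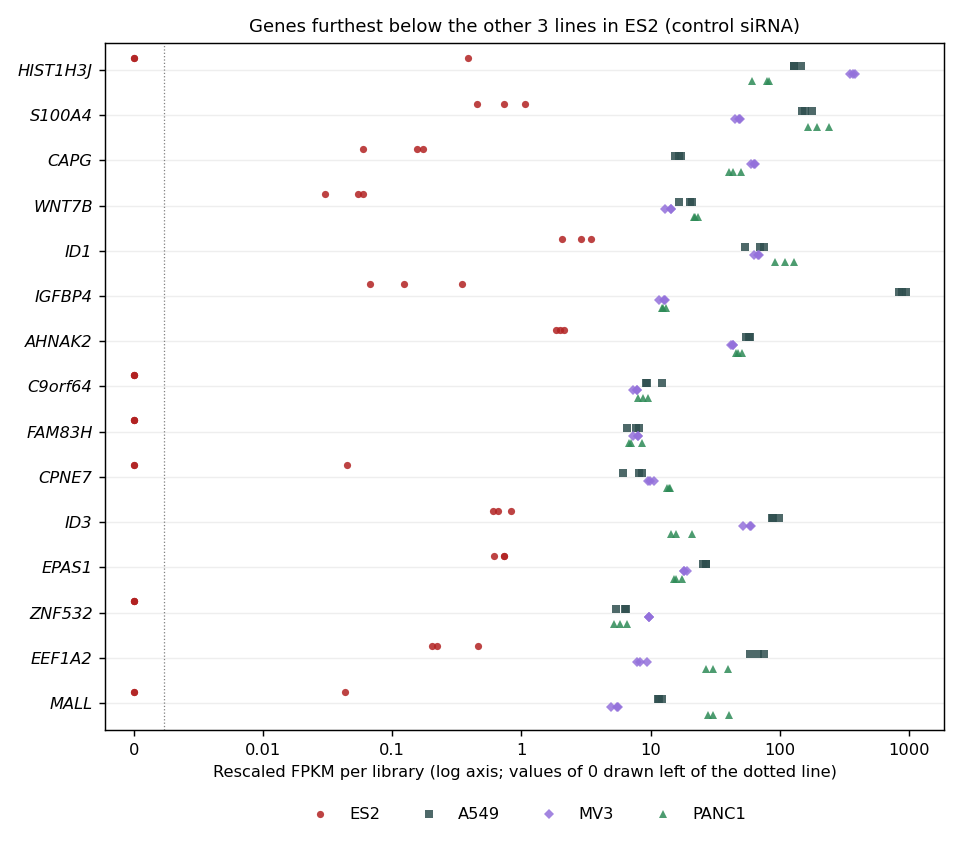
Rescaled FPKM on a log axis in the 12 control libraries for the 15 genes furthest below the other 3 lines, each point 1 library and values of 0 drawn left of the dotted line. For S100A4 the ES2 points lie between 0.450 and 1.06 and the other lines at 45.4 or more, and C9orf64, FAM83H and ZNF532 have no ES2 read.

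Several receptor tyrosine kinases, the inputs of RAS and PI3K signalling, differed between ES2 and the other lines. ERBB2 (HER2) was at 0.0149, 0.0722 and 0.0396 in ES2 against 9.96 in A549, 5.34 in MV3 and 5.32 in PANC1, 236-fold, 126-fold and 126-fold apart. The ES2 libraries held 9 ERBB2 reads in all. STARD3 and MIEN1, its neighbours on chromosome 17 (looked up after seeing this), were present in ES2 at 7.39 ± 0.41 and 7.05 ± 0.051, and GRB7 had no read. KIT, the stem cell factor receptor, was at 2.29, 1.85 and 2.11 with no read in A549 and means of 0.00369 and 0.0838 in MV3 and PANC1. As KIT passed the filter on low values only through ES2, higher was the only direction open to it. PDGFRA was at 2.77 ± 0.12 against 1.09 in MV3, close to the minimum difference, and its call was lost under several settings. With the same FPKM sum KIT fell below the filter on low values and 0 members were called higher. In all 2 of 21 tested members were higher and 1 lower, beside 3.14% and 2.03% of all genes. By pairs, 9 members were lower than in A549, 2 than in MV3 and 8 than in PANC1, beside 16.3%, 8.29% and 15% of all genes. Against each of these lines 5 were higher, beside 11.9%, 10.5% and 13.5%. The list's median difference was -0.78 beside -0.02 over all genes tested. AXL was at 271 ± 9.8 in ES2 and 269 ± 5.6 in MV3, above A549 and PANC1, MET at 57.3 did not reach a log2 difference of 1 from any line, and EGFR at 21.7 did not either. INSR, the insulin receptor, had no read in ES2, and IGF1R was at 3.36 against 39.9 in A549.

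The locus of the G1 inhibitors on chromosome 9 was expressed in ES2. CDKN2A, which encodes p16 and p14ARF, was at 36.8, 42 and 38.86, against 10.9 ± 0.50 in MV3 and means of 0.0176 and 0.0604 in A549 and PANC1. Its neighbours MTAP, a purine salvage enzyme looked up afterwards, and CDKN2B were at 7.70 ± 0.26 and 2.1 ± 0.54 in ES2, whereas A549 and PANC1 were at 0.401 and 0.113 for MTAP and had no read for CDKN2B. TUSC1, further along the same arm, had no read in ES2 and averaged 6.53, 5.89 and 1.93 in the other lines. CDKN2A was the 1 called gene of 18 in the G1 list, beside 3.14% higher and 2.03% lower over all genes. RB1, the target of this arm, was at 6.80 in ES2 and 10.8 to 12.8 elsewhere, CDK4 at 65.7 and CCNE1 at 7.31.

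Of 24 cell cycle genes of S, G2 and M phase 0 were higher and 0 lower than in each line, near the 3.14% and 2.03% of all genes. Their median difference was 0.35. By pairs, 8 were higher than in A549, 1 than in MV3 and 2 than in PANC1, beside 11.9%, 10.5% and 13.5% of all genes. In each pair 0 were lower, beside 16.3%, 8.29% and 15%. The highest mean was in ES2 for 10 of 24, beside 2760 of 11984. TYMS, thymidylate synthase, averaged 107 ± 7.4 against 36.5, 44.6 and 55.5, short of the minimum difference from PANC1 (0.94). In the libraries treated with siRNA against IGF2BP1, 4 members were called higher.

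Several interferon-stimulated genes were lower in ES2. ISG15, a ubiquitin-like interferon-stimulated protein, was at 4.89, 6.01 and 6.22 against 78.6 ± 16 in A549, 51.2 ± 4.7 in MV3 and 26.7 ± 3.9 in PANC1. BST2 (tetherin), which holds viral particles at the membrane, had no read in ES2 and averaged 121 in MV3 and 1.4 and 1.03 in A549 and PANC1. Its call was lost with a pseudocount of 1 (-0.97) and with siRNA against IGF2BP1 (-0.51). IFIT1 (1.10 to 1.18 against 3.94 to 22.5) and OASL (0.0146 against 1.62 to 3.66) were also lower than in each line. For ISG15, IFIT1 and OASL no other library reached the ES2 range. In all 4 of 22 tested members were lower and 0 higher, 16 were lower than in A549, and 7 lower than in MV3 and in PANC1, beside 2.03%, 3.14%, 16.3%, 8.29% and 15% of all genes in that order. IFI44 was an exception, at 24.4 ± 3.1, the highest mean of the 4 lines. Among sensors, which were looked up after seeing other values, MB21D1 (cGAS) had 1 read in ES2 and averaged 4.19, 7.89 and 14.4, and TMEM173 (STING) was at 8.09 ± 0.40, against 0.0598, 5.92 and 1.45.

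Of 20 NF-kB and inflammatory genes 1 was higher and 1 lower than in each line, near the 3.14% and 2.03% of all genes. By pairs, 12 were lower and 2 higher than in A549, 6 and 4 for MV3, and 4 and 7 for PANC1. Over all genes these shares were 16.3% and 11.9%, 8.29% and 10.5%, and 15% and 13.5%. IL24, a cytokine of the IL-10 family, was at 7.14, 6.18 and 5.71 with no read in A549 or PANC1 and 0.412 ± 0.12 in MV3. This gene passed the filter on low values only through ES2, so higher was the only direction open to it. NFKBIA, the inhibitor that NF-kB induces, was at 11.3 ± 1.1 against 24.3 to 50.5, a call lost with siRNA against IGF2BP1 (-0.83). The neutrophil chemokines CXCL8 (54.8) and CXCL5 (90.4) lay below A549 and above MV3 and PANC1. CCL2 and IL6 were near 0 in ES2 (no read and 0.0460). Antigen presentation genes gave 0 higher and 0 lower of 10, near the 3.14% and 2.03% of all genes, with B2M at 70.5 in ES2.

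The knockdown target of the study and related oncofetal genes were measured for the baseline. IGF2BP1 was at 13.0, 13.7 and 11.9 in ES2, 37.1 ± 0.088 in A549, 8.97 ± 0.33 in MV3 and 12.6 ± 0.16 in PANC1. ES2 and PANC1 did not differ detectably (log2 difference 0.03, limma adjusted p = 0.645), and the order was A549 above ES2 and PANC1 above MV3. IGF2BP2 was at 28.6 ± 0.94, below MV3 (36.1) and above PANC1 (19.5) and A549 (9.39), and IGF2BP3 at 9.66 ± 0.83 was the lowest of the 4 lines. HMGA1, an architectural chromatin protein, was at 674, 636 and 662 against 82.1, 316 and 166, called higher with a smallest difference of 1.06. That call was lost when the libraries were given the same sum (0.93) and without replicate 3 of MV3 (0.99). It was also lost with siRNA against IGF2BP1 (0.58). LIN28B, which blocks let-7 maturation, was lower (0.836 against 2.36 to 5.94), a call lost on the values as deposited (-0.94). It was lost as well with a pseudocount of 1 (-0.87) and with siRNA against IGF2BP1 (-0.88). MYC was at 57.0, 57.2 and 54.1, above each line by 0.50, 1.63 and 1.16. Of 19 MYC, PI3K and chromatin genes 0 were called in either direction, near the 3.14% higher and 2.03% lower over all genes. SMARCA4, the ATPase of SWI/SNF, was at 21.5 ± 0.66, near MV3 (20.5) and above A549 (2.23) and PANC1 (3.53). ARID1A, a subunit often lost in clear cell carcinoma, was at 4.91, 5.71 and 3.65 and did not differ detectably from A549 (5.01). AKT2 was at 8.31 in ES2 and 144 in PANC1.

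NRF2 targets set A549 apart rather than ES2. ES2 was lower than A549 for 16 of 20 members (16.3% of all genes were), with AKR1B10 at 0.0872 against 1071 and ALDH3A1 without a read against 342. Against MV3 3 were lower and 4 higher, and against PANC1 3 were lower and 3 higher. Over all genes these shares were 8.29% and 10.5%, and 15% and 13.5%. HMOX1, haem oxygenase, was the 1 member below each line, at 1.97 ± 0.31 against 5.48 to 52.7, a call lost with siRNA against IGF2BP1 (-0.71).

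Across the lists the medians of ES2 minus the mean of the other lines ran from -1.46 for the epithelial genes to 3.22 for the cancer-testis genes, counting lists with at least 5 tested members, beside -0.02 over all genes tested. The cancer-testis median covers the 8 of 16 members that passed the filter, some only through ES2. Against MV3 alone it was 0.47, and against A549 and PANC1 5.12 and 4.99. Setting lines with 0 reads to 3 reads moved no list median by more than 0.079.

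**Figure D5:**
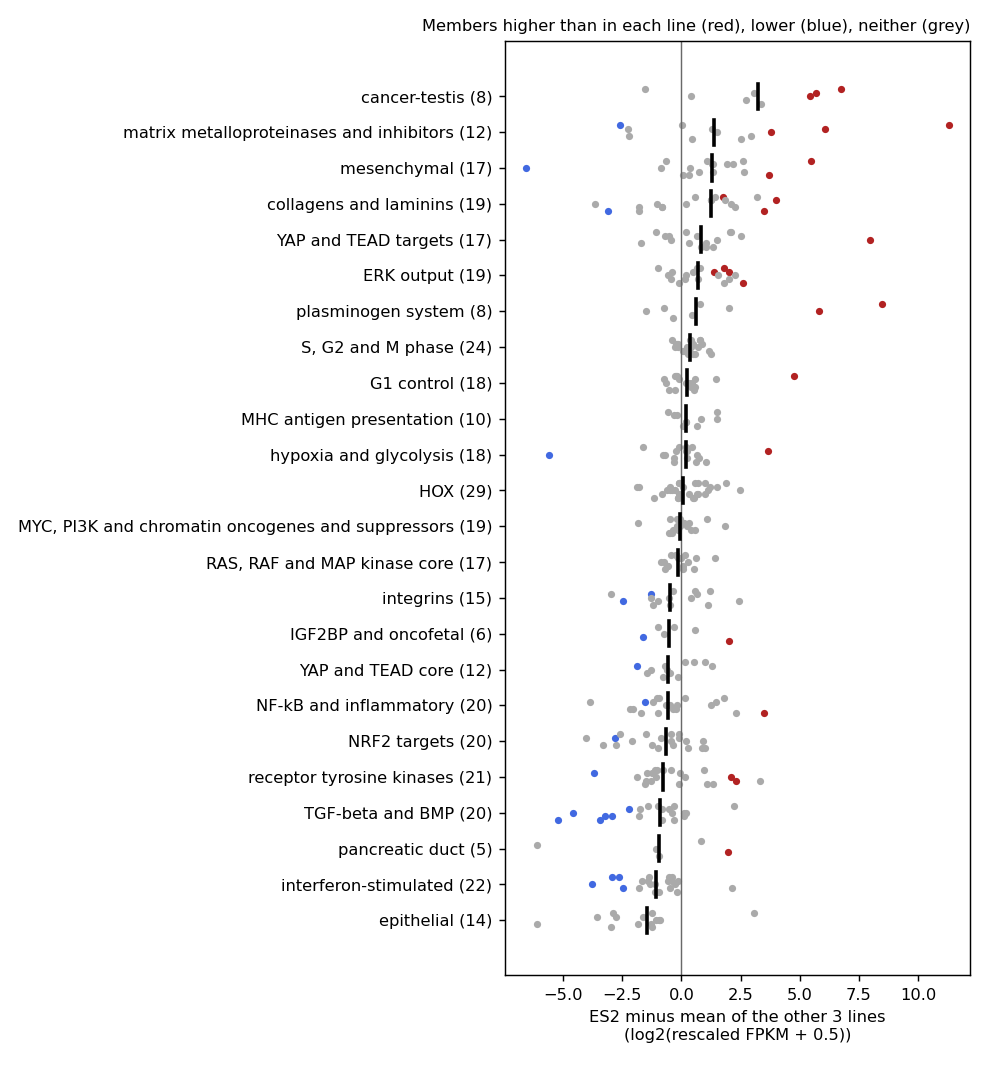
Each point is 1 tested gene of a list (number of genes in parentheses), placed at ES2 minus the mean of the other 3 lines on the log2(rescaled FPKM + 0.5) scale. Red genes were higher and blue genes lower than in each line, black bars are list medians, and the medians run from -1.46 (epithelial) to 3.22 (cancer-testis).

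Silent genes were scattered over the genome. Of 9077 genes with a mean of at least 1 in each other line, 37 had all 3 ES2 values under 0.1 and 16 of these had no read. The longest run of neighbours among them was 2 genes, FOXL2 and FOXL2NB, which lie side by side on chromosome 3, and no run of 3 or more was found. FOXL2, a factor of the ovarian granulosa, had no read in ES2 and averaged 2.54, 10.9 and 3.75 in the other lines. WWOX, a long gene on chromosome 16 (chr16:78099400-79212667, GENCODE 44 on hg38), was looked up after seeing its values. It also had no read, at least 166-fold below A549, 44.9-fold below MV3 and 51.9-fold below PANC1. Whether DNA is lost at such loci was not measured. By chromosome, 18 of 486 tested genes of chromosome 9 were lower (3.70%) and 3 higher (0.617%), and its median difference was -0.58 against A549, -0.41 against MV3 and 0.01 against PANC1. Chromosome 21 was shifted the other way against all 3 lines (0.43, 0.35 and 0.33). Chromosome 4 held the largest share of higher genes among the chromosomes, 31 of 428 (7.24%), although its median difference from the mean of the other lines was -0.15. The largest shares of lower genes were on chromosomes 18 (7 of 167, 4.19%, with as many higher) and 19 (31 of 824, 3.76%).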

How the data were processed

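Total RNA from 4 lines was depleted of rRNA and sequenced with a stranded kit. Per the submitters' processing notes the authors used cutadapt 1.14, HISAT2 2.1.0, SAMtools 1.5, featureCounts 1.5.3 and edgeR 3.30.3 on build hg38, and deposited 1 table of FPKM values per line. Multiplied by gene length, the deposited FPKM values were whole multiples of 1 step per library (100% within 0.01), which gave the reads: 6421764 to 7253729 per ES2 library, 3987122 to 4406817 in A549, 15572492 to 16077195 in MV3 and 6723908 to 8472851 in PANC1. Deeper libraries measure low genes more precisely, and the number of reads covers counting error only.

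The 4 tables, each normalised separately by the authors, were joined on gene identifier (58174 genes, 19799 protein-coding), and the 12 control libraries were rescaled by the median of ratios to the geometric mean (factors 0.881 to 1.08). Genes with a mean of at least 0.5 were fitted with limma 3.58.1 (R 4.3.3, trend) on log2(FPKM + 0.5) with 3 contrasts against ES2 and Benjamini-Hochberg adjustment over all genes tested. A fold of means is given where every group had over 3 reads, and against 0 reads it is a bound using 3 reads over the group. The fitting script was tested on simulated data. Replicates of a line differed by more than counting error (chi-square per gene 1.72 to 15.1), so none was a duplicate.

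Named genes were the 15 furthest from all 3 lines in each direction, IGF2BP1 to IGF2BP3, members of 30 lists and genes in runs of silent neighbours. Members, lists and rules were chosen with earlier results of these data known. Genes described as looked up afterwards fall outside this rule, as do the groups of the closing section. Positions come from GENCODE 44 (hg38) and promoters from RefSeq (GRCh38.p14), matched by symbol. The alternatives were other scalings, pseudocounts and filters, other minimum differences, voom on the reads, a replicate block, leaving out libraries or PANC1, and the libraries treated with siRNA against IGF2BP1. Some genes of the lists and 1 list are not reported here.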

Additional observations from a re-analysis of the deposited data

How the results depend on the processing

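The numbers of genes higher and lower in ES2 than in each line (376 and 243) ranged from 346 to 392 and from 237 to 248 when 1 library was left out. They moved by over 1.5 times with a filter at a mean of 2 (233 higher), with voom on the reads (471 lower), with a pseudocount of 0.1 (393 lower), without PANC1 (436 lower), with no minimum difference (1710 and 1515) and with a minimum of 2 (140 and 59). Changed thresholds admit more or fewer genes by construction, and without PANC1 there is 1 line fewer to differ from. For voom the cause was not tested. The replicate block left 376 and 243. Replicate numbers did not pair the libraries of different lines (correlations of same-numbered deviations from -0.156 to 0.251), so the block was not used further. In the libraries treated with siRNA against IGF2BP1 402 were higher and 242 lower, sharing 285 (75.8% of 376) and 171 (70.4% of 243) with the controls, and 2 named genes reversed there, DUSP5 (smallest log2 difference -0.73) and ESM1 (-1.59), for which the cause was not tested. Of 98 called named genes 22 lost the call in at least 1 setting in which they were tested, and 0 of the 30 genes furthest from the other lines did. Depth limits statements on absence: a gene without reads in ES2 was not detectable at 6421764 to 7253729 reads per library.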

Other observations

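Some gene groups outside the report's lists were assembled after their values had been seen, so their counts are descriptions. CDH5 (VE-cadherin), the 1 tested gene of the list of immune, endothelial and blood markers, was at 8.21, 10.7 and 9.35 in ES2, with no read in MV3 and means of 0.0127 and 0.0474 in A549 and PANC1. TIE1, an endothelial receptor, was at 21.2, 26.0 and 23.4 against at most 0.156 in any other library. Both passed the filter on low values only through ES2, so their separation from the other lines adds no support. Of 20 endothelial genes then picked, 9 passed the filter on low values, which ES2 alone could have satisfied for such genes. Each of these 9 was higher than in each line, beside 3.14% of all genes, a count largely fixed by the picking and the filter. They include ECSCR (8.81 ± 0.74, no read elsewhere), ADGRL4 (12.6 ± 2.1), VCAM1 (5.66 ± 0.68), the ETS factor FLI1 (6.66 ± 0.42), ROBO4 (3.94 ± 0.35) and the peptide APLN (9.72 ± 1.2). ESM1, a proteoglycan, was at 13.3 ± 0.91 with MV3 at 5.01, and its smallest difference was -1.59 in the libraries treated with siRNA against IGF2BP1. The defining markers PECAM1 (0.315), VWF (0.0139) and KDR (0.126) were near 0, and TEK, ERG, TAL1, PLVAP, EMCN and SELE had no read. PTPRC, CD3D and HBB, markers of blood cells, had no read either.

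Of 82 tested cytosolic ribosomal protein genes 69 had their highest mean in ES2, 6 were higher than in each line and 0 lower, and the median difference was 0.83. Over all 11984 genes tested 2760 had their highest mean in ES2, 3.14% were higher and 2.03% lower, and the median was -0.02. The number of calls was 3 with the same FPKM sum and 8 with the same median. RPL9 was at 327, 305 and 330 against means of 46.8, 79.3 and 51.6. EEF2, the elongation factor that moves the ribosome, was at 1121 ± 35 against 333, 540 and 320, and RACK1, a protein of the small subunit, at 404 ± 30 against 137, 186 and 161. The calls of EEF2, RACK1 and RPL3 were lost with the same sum, and that of RACK1 also with siRNA against IGF2BP1 (0.62). Reads of these genes may be shared with processed pseudogenes, so that single values are uncertain.

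Histone genes that depend on replication, which lack poly(A) tails and are kept by rRNA depletion, showed switches between copies. HIST1H3G was at 68.4, 82.1 and 76.2 in ES2 and at most 0.256 on average elsewhere, while HIST1H3J was at 0, 0.385 and 0 against means of 135, 365 and 74.4. HIST1H3I was nearly absent in MV3 alone (0.0502), and HIST1H3F in PANC1 alone (0.854, against 1061 ± 73 in ES2). Of 63 tested members 9 were higher and 2 lower, and 38 had the highest mean in ES2, beside 3.14%, 2.03% and 2760 of 11984 over all genes, so that the lower share was near the background. The coding sequences are near-identical, so reads could be split between copies.

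Other abundant ES2 genes noticed afterwards were PTX3, a pattern recognition protein (242, 235 and 250, against 1.24, 15.6 and 3.73), G0S2, an inhibitor of lipolysis (306 ± 9.6 against at most 41.8), DHCR7, the last enzyme of cholesterol synthesis (328 ± 11 against 15.5, 30.8 and 57.3), and the cancer-testis gene SPANXB1 (455 ± 27 against 0.167, 39.0 and 0.560), which has near-identical copies. S100A3, next to S100A4 in the S100 cluster, was lower than in each line (0.762 ± 0.12 against 10.9 to 21.4), whereas S100A6 was at 417 ± 30, not detectably different from A549 (379). SOCS3, a cytokine-induced inhibitor, was at 3.64 ± 0.28 against 14.1, 25.7 and 24.5.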
